A study of Homo sapiens with 12 samples.

Results

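The Prader-Willi locus on chromosome 15 was followed through 44 of the 32321 probe sets of a one-colour whole-transcript array series: 20 for copies of SNORD116, 20 for copies of SNORD115, and 1 each for the protein-coding genes MKRN3, MAGEL2, NDN and UBE3A. The members were chosen by gene symbol, taking every probe set whose only symbol was that of a gene of the locus. The locus itself was selected on the control arrays, because SNORD116-14 and SNORD116-15 stood among the largest differences between the cell lines there, so the control arrays are described below without a test. SNORD64, SNORD107, SNORD108, SNORD109A, SNORD109B, SNRPN, SNURF and IPW had no probe set of their own, and 15 further probe sets that list several symbols, at least 1 of them from the locus, are described apart from the members.

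The samples were 2 established Hodgkin lymphoma cell lines, U-HO1 and L-1236. Each had 3 arrays labelled siGATA-3, from cells transduced with an shRNA against the transcription factor GATA-3, and 3 labelled siSCR, from cells given a non-functional control shRNA. Cells of all groups were cultured 3 days after transduction and GFP-positive cells were sorted. Each array carried amplified RNA from 25000 of them. U-HO1 grew in IMDM and L-1236 in RPMI 1640, so line and medium cannot be told apart, and each line is 1 tumour-derived line and stands for no class of lymphoma. Nothing in the sources used here says whether the 3 arrays of a group came from separate cultures, so p-values speak only of the spread among arrays, which may be technical, and the number of arrays limits the precision.

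The locus is imprinted. On the paternal chromosome a transcript that starts near SNURF and SNRPN runs on as the long RNA SNHG14, and the SNORD116 and SNORD115 RNAs are cut from its introns, while its far end lies antisense to UBE3A. Both snoRNA families are of the box C/D kind, which usually guides methylation of other RNAs. SNORD116 has no settled target, and SNORD115 is known for pairing with the serotonin 2C receptor transcript. Loss of the paternal SNORD116 copies is the smallest loss tied to Prader-Willi syndrome, and SNORD115 is known mainly from brain, where the transcript reaches further towards UBE3A. MKRN3, MAGEL2 and NDN are paternally expressed genes upstream of the snoRNAs, and UBE3A, a ubiquitin ligase, is maternally expressed in neurons and from both copies elsewhere.

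The values are log2 signals, with array medians of 6.96 to 7.09 and values of 3.86 to 13.99. Arrays of 1 line correlated with r of 0.986 to 0.995 over all probe sets, and arrays of different lines with r of 0.939 to 0.951. GATA3 itself was at 11.07, 10.12 and 10.22 on the U-HO1 siGATA-3 arrays and at 11.24, 10.90 and 10.24 on the U-HO1 siSCR arrays. In L-1236 it was at 10.80, 10.00 and 10.24 on siGATA-3 arrays and at 10.29, 10.69 and 9.95 on siSCR arrays. The groups overlapped in both lines, so arrays are called by their labels throughout. The Hodgkin markers averaged 9.24 to 9.54 on U-HO1 arrays and 8.89 to 9.24 on L-1236 arrays (6 of 6 measured), but they went both ways. On the siGATA-3 arrays TRAF1 averaged 10.14 in U-HO1 and 6.90 in L-1236, TNFRSF8 10.22 and 9.66, and CCL17 9.01 and 8.22. Lower in U-HO1 on these arrays were CCL22 at 7.17 against 8.69, FUT4 at 8.74 against 8.97 and IRF4 at 11.33 against 11.51. The T-cell markers averaged 6.19 to 6.43 in U-HO1 and 6.22 to 6.39 in L-1236 (6 of 6). The B-cell markers averaged 6.57 to 6.72 in U-HO1 and 7.43 to 7.66 in L-1236 (5 of 6 measured). Within these, taking the siGATA-3 arrays, PAX5 averaged 7.67 in U-HO1 and 9.69 in L-1236 and CD22 averaged 6.30 in U-HO1 and 9.0 in L-1236, so these 2 carry the difference of the list. MS4A1 averaged 5.77 in U-HO1 and 5.67 in L-1236, CD79A 6.56 in U-HO1 and 6.69 in L-1236, and CD79B 6.90 in U-HO1 and 6.81 in L-1236. The part of the markers in the results was not tested. No background level is given, so low values are not shown to lie above background and the size of each fold depends on it. The signal comes from bulk RNA, in which fewer expressing cells and less RNA per cell cannot be told apart.

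Most SNORD116 probe sets were higher in U-HO1 than in L-1236. On the siGATA-3 arrays, which took no part in choosing the locus, 8 of the 20 passed as higher in U-HO1 with an adjusted p under 0.05 and a difference of at least 2-fold, and 0 passed as lower (limma on these 6 arrays, Benjamini-Hochberg over all 32321 probe sets). Of all probe sets 2.4% passed as higher and 2.66% as lower. The median difference, U-HO1 minus L-1236, was 0.89 over the SNORD116 members, against 0.03 over all probe sets. Without the 2-fold limit, 18 of the 20 had an adjusted p under 0.05 and were higher in U-HO1, where 13% of all probe sets were. These 18 also had all 6 U-HO1 arrays above all 6 L-1236 arrays, as had 11.8% of all probe sets, a count that includes the siSCR arrays on which the locus was selected. The siGATA-3 arrays hold the same 2 lines, so they add arrays and no further line.

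The 5 copies with the largest differences, SNORD116-14, SNORD116-15, SNORD116-20, SNORD116-21 and SNORD116-24, all come from the middle stretch of the cluster. SNORD116-14 was at 10.04, 10.28 and 9.98 on the U-HO1 siGATA-3 arrays, against 5.10, 4.89 and 4.99 on the L-1236 siGATA-3 arrays. All U-HO1 arrays were high and all L-1236 arrays low, with no overlap and a gap far wider than the spread within either line. The difference was 5.10 (SE 0.10, 95% interval 4.87 to 5.33), or 34.4-fold, with an adjusted p of 1.64e-07 by limma, and it ranked 3 of 32321 for higher signal in U-HO1. SNORD116-15 was at 10.99, 10.998 and 10.77 in U-HO1 and 6.26, 6.07 and 6.22 in L-1236. Here too every U-HO1 array was far above every L-1236 array. The difference was 4.73 (SE 0.09, 95% interval 4.52 to 4.95), or 26.6-fold, with an adjusted p of 1.64e-07 by limma.

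SNORD116-20 was at 9.95, 9.77 and 9.70 in U-HO1 and 5.64, 5.51 and 5.60 in L-1236, a difference of 4.22 (SE 0.09), or 18.7-fold (limma adjusted p 1.88e-07). SNORD116-21 was at 9.48, 9.07 and 8.68 in U-HO1 and 5.35, 4.97 and 5.08 in L-1236, a difference of 3.94 (SE 0.19), or 15.4-fold (limma adjusted p 7.62e-06). The U-HO1 arrays of SNORD116-21 were the most spread of any SNORD116 member on siGATA-3 arrays (SD 0.40, n = 3), and even the lowest was well above every L-1236 array. SNORD116-24 was at 8.28, 8.39 and 8.32 in U-HO1 and 5.20, 5.21 and 5.38 in L-1236, a difference of 3.07 (SE 0.08), or 8.40-fold (limma adjusted p 3.32e-07). All 5 ranked within the first 63 probe sets for higher signal in U-HO1.

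The other 3 copies that passed differed by about 3-fold. SNORD116-1, the first copy, was at 6.76, 7.37 and 6.86 in U-HO1 and 5.19, 5.23 and 5.40 in L-1236, a difference of 1.72 (SE 0.16), or 3.31-fold (limma adjusted p 0.000149). SNORD116-22 was at 6.43, 6.47 and 6.57 in U-HO1 and 4.82, 4.77 and 5.03 in L-1236, a difference of 1.62 (SE 0.09), or 3.07-fold (limma adjusted p 1.2e-05). SNORD116-6 was at 6.83, 6.81 and 6.52 in U-HO1 and 5.22, 5.01 and 5.24 in L-1236, a difference of 1.56 (SE 0.11), or 2.96-fold (limma adjusted p 4.04e-05). In each of these the lines did not overlap. The U-HO1 siGATA-3 arrays were still at or below the median signal of the arrays, with the exception of SNORD116-1 replicate 2. SNORD116-18 lay just short of 2-fold, at 6.06, 5.85 and 5.96 in U-HO1 and 4.81, 5.08 and 5.0 in L-1236, a 1.99-fold difference (limma adjusted p 0.000188).

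With SNORD116-18, 10 copies had an adjusted p under 0.05 and a difference short of 2-fold, from 0.41 for SNORD116-28 to 1.00. SNORD116-28 was at 6.0, 6.03 and 6.09 in U-HO1 and 5.72, 5.52 and 5.65 in L-1236. Its lines stood apart by little more than the spread of the L-1236 arrays (limma adjusted p 0.00575). The remaining 8, SNORD116-11, SNORD116-12, SNORD116-13, SNORD116-23, SNORD116-25, SNORD116-26, SNORD116-27 and SNORD116-29, differed by 0.47 to 0.89.

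The lines were not distinguished by 2 copies. SNORD116-10 was at 5.38, 5.32 and 5.35 in U-HO1 and 5.26, 5.33 and 5.41 in L-1236, a difference of 0.02 (95% interval -0.14 to 0.18, limma adjusted p 0.886). SNORD116-16, next to SNORD116-15 in the gene order, was at 4.96, 4.95 and 4.99 in U-HO1 and 4.73, 4.83 and 5.08 in L-1236, a difference of 0.08 (95% interval -0.14 to 0.31, limma adjusted p 0.615). Both overlapped between the lines on the siGATA-3 arrays and were dim on all 12 arrays, below 5.47, the 10th percentile of all values. On the siSCR arrays SNORD116-10 overlapped as well. SNORD116-16 did not overlap there, at 4.95, 4.91 and 5.33 in U-HO1 and 4.69, 4.81 and 4.88 in L-1236. Of all probe sets 17.8% were higher in U-HO1 without overlap on those arrays.

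**Figure D1:**
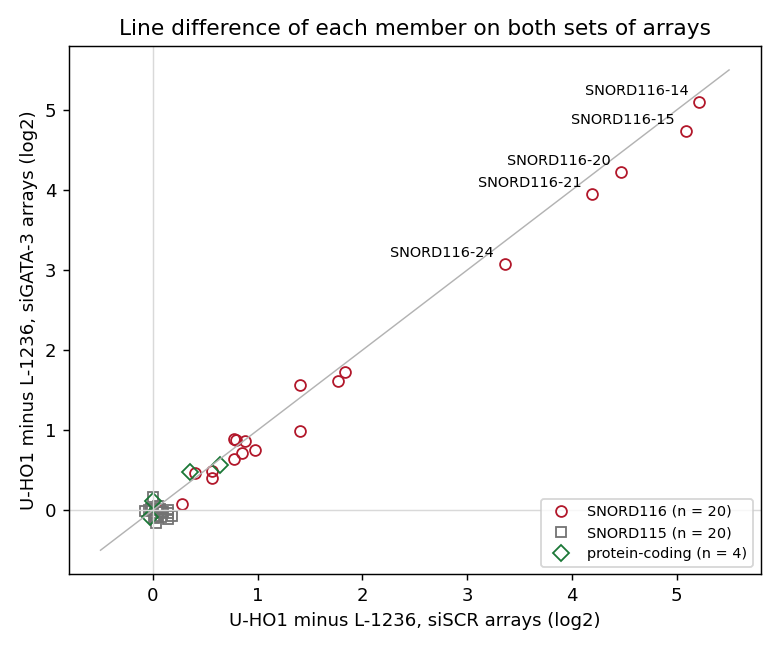
Difference in log2 signal, U-HO1 minus L-1236, of each of the 44 members on siGATA-3 arrays (vertical axis, tested) and on siSCR arrays (horizontal axis, the arrays that chose the locus), with a grey line where both are equal. The 5 named SNORD116 copies lie at 3.07 to 5.10 on the vertical axis, and the SNORD115 copies (grey squares) cluster near 0.

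Read along the cluster, whose copy numbers follow the order of the genes, the 6 measured copies from SNORD116-1 to SNORD116-13 had a median difference of 0.70 (0.02 to 1.72). The 9 measured from SNORD116-14 to SNORD116-24 had a median of 3.07 (0.08 to 5.10), and the 5 from SNORD116-25 to SNORD116-29 a median of 0.72 (0.41 to 0.89). These stretches were set after the values were seen and have no test. Probe sets differ in how well they bind their target, so the spread between copies does not show unequal amounts of RNA, and the L-1236 means of the copies lay between 4.87 and 6.18 on the siGATA-3 arrays. The current gene table lists 30 SNORD116 and 48 SNORD115 copies. Copies of a family resemble each other to differing degrees, so a probe set may take up signal of other copies. How far this happens was not checked, and the copies are not independent of each other. The labels name a silica-column kit, and such columns keep RNA as short as a mature snoRNA poorly, so mature snoRNA and the host intron cannot be told apart.

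On the siSCR arrays, which chose the locus, 9 of 20 SNORD116 members were at least 2-fold higher in U-HO1, as were 2.7% of all probe sets, and nothing is read from this count. The median difference was 0.92 (0.04 to 5.22). SNORD116-14 was at 9.87, 10.19 and 10.29 in U-HO1 and 4.83, 4.77 and 5.10 in L-1236, and SNORD116-15 at 10.78, 11.06 and 11.20 in U-HO1 and 6.0, 5.90 and 5.89 in L-1236. Their differences were 5.22 and 5.09, as a description. SNORD116-18, just short of 2-fold on the siGATA-3 arrays, differed by 1.40 on the siSCR arrays. Across the 20 copies the differences on siSCR arrays and on siGATA-3 arrays had a Pearson r of 0.997 and a Spearman rho of 0.965, a description in which both sets share the lines and the probe sets.

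The U-HO1 siSCR arrays spread more than the others. Over the 20 SNORD116 members the median SD was 0.20 there, against 0.08 to 0.10 in the other groups, and the largest was that of SNORD116-24 (SD 0.71, n = 3), at 7.72, 8.69 and 9.10. Of the 20 copies, 18 were highest on U-HO1 siSCR replicate 3 and 14 lowest on replicate 1, and the copies of 1 array share that array. Of the 20 SNORD115 copies, 13 were also highest on replicate 3 and 7 lowest on replicate 1, so the pattern is not particular to SNORD116. The SNORD116 cluster mean on the U-HO1 siSCR arrays was 6.82, 7.04 and 7.21. It was 6.98, 7.0 and 6.91 on the U-HO1 siGATA-3 arrays, 5.30, 5.26 and 5.34 on the L-1236 siGATA-3 arrays, and 5.24, 5.26 and 5.22 on the L-1236 siSCR arrays. Each U-HO1 array thus lay above each L-1236 array in the cluster mean.

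**Figure D2:**
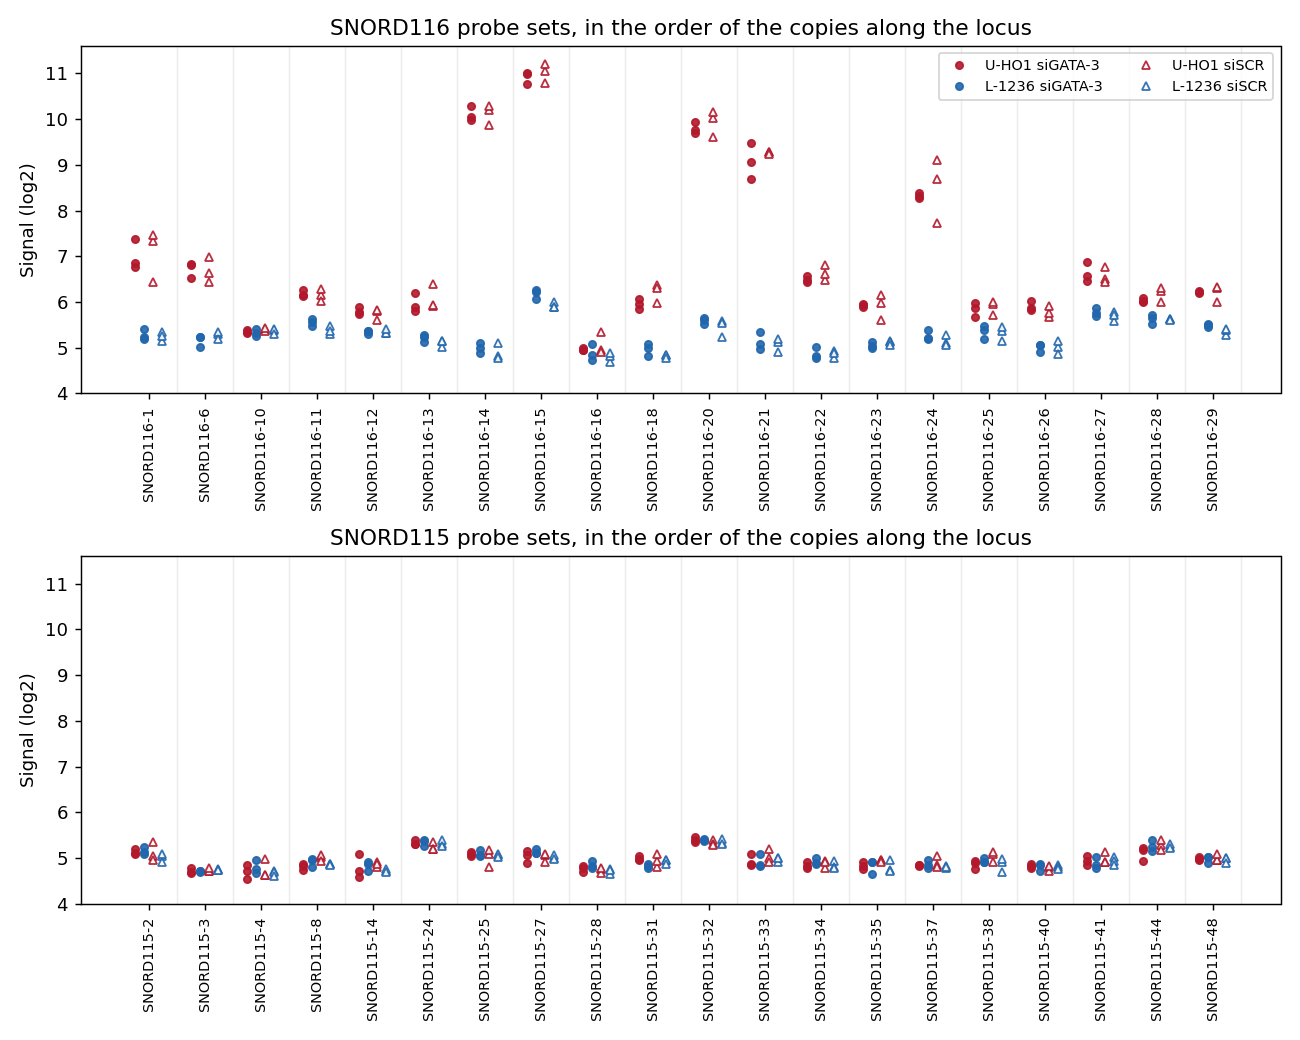
Log2 signal of each SNORD116 copy (upper panel) and SNORD115 copy (lower panel) in gene order, 1 point per array, with U-HO1 in red, L-1236 in blue, filled circles for siGATA-3 and open triangles for siSCR. For SNORD116 the red points lie above the blue ones except at SNORD116-10 and SNORD116-16, and all SNORD115 points lie between 4.54 and 5.47.

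In SNORD115, the neighbouring cluster, no difference between the lines was detected. Of its 20 members 0 passed in either direction on the siGATA-3 arrays, where 2.4% of all probe sets passed as higher and 2.66% as lower, so a count of 0 is near the share over the array. Adjusted p ran from 0.102 to 0.999 by limma, and 1 of the 20 had an unadjusted p under 0.05, where 35.3% of all probe sets did. The median difference was -0.02 (-0.16 to 0.17), and the 95% intervals of the 20 copies all lay within -0.39 to 0.32, so no interval reached 2-fold. Every SNORD115 value on the 12 arrays lay between 4.54 and 5.47, below the 10th percentile of all values, in both lines. At such signal a low level cannot be told from none, and the intervals speak only of this signal.

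The largest difference upward was that of SNORD115-31, at 4.98, 5.03 and 4.96 in U-HO1 and 4.83, 4.78 and 4.86 in L-1236 on siGATA-3 arrays. These did not overlap, but the siSCR arrays, at 4.79, 4.93 and 5.08 in U-HO1 and 4.96, 4.97 and 4.88 in L-1236, did. The difference on siGATA-3 arrays was 0.17 (SE 0.06, 95% interval 0.02 to 0.32, limma adjusted p 0.102). The largest downward was that of SNORD115-44, at 4.93, 5.21 and 5.17 in U-HO1 and 5.15, 5.24 and 5.39 in L-1236, a difference of -0.16 (SE 0.10, limma adjusted p 0.341) between overlapping lines. SNORD115-8 and SNORD115-27 followed with -0.10 each, and SNORD115-34 and SNORD115-4 with -0.09 each. SNORD115-35, SNORD115-3 and SNORD115-25 differed least, each by 0.00 after rounding, and were at 4.65 to 4.92, 4.68 to 4.78 and 5.04 to 5.17 on these 6 arrays.

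On the siSCR arrays the SNORD115 median was 0.04 (-0.08 to 0.19), and 2 of 20, SNORD115-8 and SNORD115-14, were higher in U-HO1 without overlap, as were 17.8% of all probe sets. On the siGATA-3 arrays both lay in the opposite direction and overlapped. SNORD115-8 was at 4.73, 4.86 and 4.82 in U-HO1 and 4.81, 4.96 and 4.97 in L-1236 there, and SNORD115-14 at 5.08, 4.71 and 4.59 in U-HO1 and 4.86, 4.71 and 4.92 in L-1236. Across the 20 copies the differences on both sets of arrays had a Pearson r of -0.28 and a Spearman rho of -0.29, again as a description.

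Among the protein-coding members, UBE3A and MKRN3 were higher in U-HO1 by less than 2-fold, so 0 of 4 passed with the 2-fold limit, as the array-wide shares of 2.4% higher and 2.66% lower would give. At an adjusted p under 0.05, 2 of 4 were higher and 0 lower, against 13% and 13.2% of all probe sets. UBE3A, the ubiquitin ligase lost in Angelman syndrome, was at 9.10, 8.76 and 9.01 in U-HO1 and 8.30, 8.33 and 8.52 in L-1236 on siGATA-3 arrays. It was at 8.84, 8.73 and 9.19 in U-HO1 and 8.10, 8.39 and 8.36 in L-1236 on siSCR arrays. All U-HO1 arrays were above all L-1236 arrays, and the difference on siGATA-3 arrays was 0.57 (SE 0.11, 95% interval 0.32 to 0.82), or 1.48-fold (limma adjusted p 0.00564). The far end of SNHG14 lies antisense to UBE3A and the strand read by the probes is not stated in the sources used here, so signal of the gene and of that RNA cannot be told apart.

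MKRN3, a zinc finger ubiquitin ligase known for holding back puberty, was at 7.09, 7.21 and 7.23 in U-HO1 and 6.78, 6.83 and 6.52 in L-1236 on siGATA-3 arrays. On siSCR arrays it was at 7.01, 7.29 and 7.06 in U-HO1 and 6.86, 6.67 and 6.76 in L-1236. The lines did not overlap, and the difference on siGATA-3 arrays was 0.47 (SE 0.10, 95% interval 0.24 to 0.70), or 1.39-fold (limma adjusted p 0.009).

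NDN and MAGEL2, related genes of the MAGE family that lie next to MKRN3, were near 6 in both lines. NDN, which encodes necdin, a growth suppressor of neurons, was at 6.04, 6.14 and 5.99 in U-HO1 and 5.90, 6.0 and 5.92 in L-1236 on siGATA-3 arrays. On siSCR arrays it was at 5.84, 6.05 and 5.94 in U-HO1 and 5.88, 6.0 and 5.93 in L-1236. The lines overlapped on both sets of arrays, with a difference of 0.11 on siGATA-3 arrays (95% interval -0.06 to 0.28, limma adjusted p 0.333). MAGEL2, which works with the ubiquitin ligase TRIM27 in endosomal sorting, was at 6.43, 6.09 and 6.31 in U-HO1 and 6.42, 6.40 and 6.28 in L-1236 on siGATA-3 arrays. On siSCR arrays it was at 6.23, 6.35 and 6.23 in U-HO1 and 6.47, 6.20 and 6.22 in L-1236. These overlapped as well, with a difference of -0.09 on siGATA-3 arrays (95% interval -0.32 to 0.14, limma adjusted p 0.603).

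**Figure D3:**
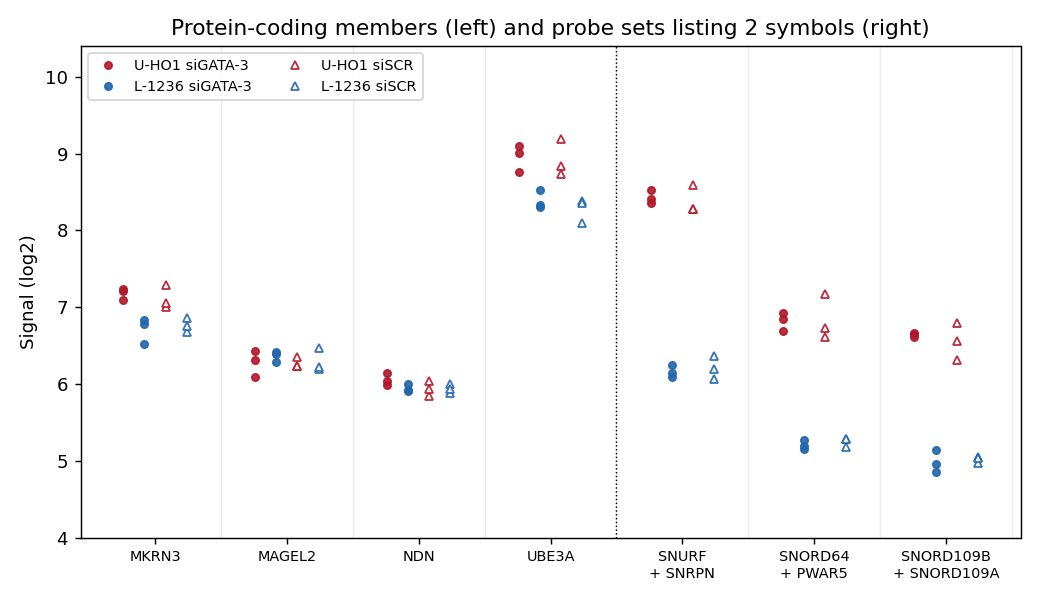
Log2 signal of MKRN3, MAGEL2, NDN and UBE3A (left of the dotted line) and of 3 probe sets that list 2 symbols each (right), 1 point per array, with U-HO1 in red, L-1236 in blue, filled circles for siGATA-3 and open triangles for siSCR. The lines stand apart for MKRN3, UBE3A and the 3 probe sets on the right, and overlap for MAGEL2 and NDN.

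Probe sets that list several symbols of the locus cannot be given to 1 gene, and they are described as annotated. The probe set listing SNURF and SNRPN, which share the transcript start at the imprinting centre and encode a small nuclear protein and the spliceosomal protein SmN, was at 8.53, 8.36 and 8.41 in U-HO1 and 6.25, 6.15 and 6.09 in L-1236 on siGATA-3 arrays. It was at 8.28, 8.28 and 8.59 in U-HO1 and 6.37, 6.19 and 6.07 in L-1236 on siSCR arrays. The lines were far apart on both sets, and the difference on siGATA-3 arrays was 2.27 (SE 0.08), or 4.82-fold (limma adjusted p 1.44e-06). The probe set listing SNORD64 and PWAR5, both from the stretch before SNORD116, was at 6.93, 6.69 and 6.85 in U-HO1 and 5.19, 5.27 and 5.16 in L-1236, a 3.06-fold difference (limma adjusted p 9.04e-06). The one listing SNORD109A and SNORD109B, paired copies on either side of the snoRNA clusters, was at 6.65, 6.66 and 6.61 in U-HO1 and 4.86, 4.96 and 5.14 in L-1236, a 3.15-fold difference (limma adjusted p 1e-05). None of these 3 overlapped between the lines on the siGATA-3 arrays, where 6961 of all 32321 probe sets were higher in U-HO1 without overlap. All 3 passed as higher with the 2-fold limit, as did 2.4% of all probe sets.

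Of the 6 such probe sets that list SNORD116 copies, 4 passed as higher in U-HO1, with differences of 0.52 to 4.92 over the 6. Of all probe sets 2.4% passed as higher and 2.66% as lower. The 1 of these 6 with the largest difference lists SNORD116 copies and SNRPN. It was at 10.62, 10.46 and 10.16 in U-HO1 and 5.43, 5.46 and 5.59 in L-1236, a 30.3-fold difference (limma adjusted p 2.93e-07). Of the 6 that list SNORD115 copies, 0 passed, a count near the array-wide shares. Their differences were -0.06 to 0.09, with limma adjusted p of 0.553 to 0.940. These probe sets may read the same transcripts as the members, so they are not separate support.

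The probe set listing SNURF and SNRPN and those of MKRN3 and UBE3A were higher in U-HO1, and those of NDN and MAGEL2 were not distinguished. Where in these genes the probes lie was not examined. For these genes, 3 promoters of the paternally expressed ones are shown, 5′ to 3′ on the gene's strand, from RefSeq on GRCh38.p14. Each covers 250 bases before to 50 after a gene start, with each CpG in capitals, the dinucleotide at which imprinted promoters are methylated. SNURF, whose window is also 1 of the 4 SNRPN windows, is at chr15:24954737-24955036 (plus strand). MKRN3 is at chr15:23565424-23565723 (plus strand), and NDN at chr15:23687256-23687555 (minus strand).
SNURF: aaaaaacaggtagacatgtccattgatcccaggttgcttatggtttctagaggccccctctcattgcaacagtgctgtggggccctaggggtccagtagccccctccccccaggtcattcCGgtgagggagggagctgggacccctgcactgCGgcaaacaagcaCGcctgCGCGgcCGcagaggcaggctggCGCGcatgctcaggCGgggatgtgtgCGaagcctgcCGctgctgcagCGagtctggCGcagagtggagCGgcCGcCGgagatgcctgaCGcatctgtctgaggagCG
MKRN3: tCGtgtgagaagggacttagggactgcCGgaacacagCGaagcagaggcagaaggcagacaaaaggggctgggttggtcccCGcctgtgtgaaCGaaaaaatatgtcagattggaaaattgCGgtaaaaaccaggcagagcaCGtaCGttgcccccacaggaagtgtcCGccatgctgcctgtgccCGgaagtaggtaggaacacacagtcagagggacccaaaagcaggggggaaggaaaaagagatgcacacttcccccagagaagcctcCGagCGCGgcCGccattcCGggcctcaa
NDN: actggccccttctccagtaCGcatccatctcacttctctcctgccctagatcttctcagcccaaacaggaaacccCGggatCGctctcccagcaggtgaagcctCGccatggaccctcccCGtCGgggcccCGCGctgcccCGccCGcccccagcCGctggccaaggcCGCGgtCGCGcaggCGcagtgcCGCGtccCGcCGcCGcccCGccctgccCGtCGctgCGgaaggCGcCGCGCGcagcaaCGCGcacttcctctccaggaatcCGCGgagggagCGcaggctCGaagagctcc

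The letters searched were CG, which read the same on both strands. The SNURF window held 18 CpG, more than 55.5% of the 35116 promoter windows, the MKRN3 window 15, more than 51.1%, and the NDN window 35, more than 85.9%. Of all windows 96% held at least 1, with a median of 14. MAGEL2 had 9, and the 3 UBE3A windows had 44, 39 and 38. These counts describe the windows only, since methylation was not measured. No sequence of the snoRNA copies was used here.

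The shRNA comparison asked whether GATA-3 depletion changed the locus within a line. By the submitters' criteria, a false discovery rate up to 25% with a 1.5-fold change or more, 0 of 44 members passed in U-HO1 and 0 of 44 in L-1236 (limma on all 12 arrays, 8 residual degrees of freedom). Of all 32321 probe sets 0% passed in either line. An unadjusted p under 0.05 was reached in U-HO1 by 2 members (4.55%) and by 1.05% of all probe sets, and in L-1236 by 1 member (2.27%) and by 4.77% of all probe sets. No member differed by 1.5-fold in either line. In each line 43 of the 44 intervals excluded a 1.5-fold change in either direction, the exception being SNORD116-24 in both.

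In U-HO1 the siGATA-3 minus siSCR differences ran from -0.26 to 0.12, with medians of -0.07 for SNORD116, -0.03 for SNORD115 and 0.05 for the protein-coding genes. The lowest p values downward were those of SNORD115-8 at -0.20 (SE 0.07, unadjusted p 0.0167), SNORD116-18 at -0.26 (SE 0.11, unadjusted p 0.0339) and SNORD115-38 at -0.18 (SE 0.09). SNORD116-18 was at 6.06, 5.85 and 5.96 on siGATA-3 arrays and 5.97, 6.37 and 6.32 on siSCR arrays, so the groups overlapped. SNORD115-8 was at 4.73, 4.86 and 4.82 on siGATA-3 arrays and 5.03, 5.06 and 4.92 on siSCR arrays, without overlap but below the 10th percentile of all values. Upward, NDN differed by 0.11 (SE 0.07), SNORD116-26 by 0.12 (SE 0.09) and SNORD115-24 by 0.09 (SE 0.07). All adjusted p values of members in U-HO1 were 1 after rounding. SNORD116-14 differed by -0.02 (95% interval -0.29 to 0.26) and SNORD116-24 by -0.17 (95% interval -0.72 to 0.37).

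In L-1236 the differences ran from -0.12 to 0.26, with medians of 0.07 for SNORD116, 0.04 for SNORD115 and 0.04 for the protein-coding genes. SNORD116-15 had the lowest p, at 6.26, 6.07 and 6.22 on siGATA-3 arrays and 6.0, 5.90 and 5.89 on siSCR arrays. The groups did not overlap, but the difference of 0.26 (SE 0.11, unadjusted p 0.0353) had an adjusted p of 0.925 by limma. SNORD116-11 differed by 0.17 (SE 0.08) and SNORD115-28 by 0.12 (SE 0.07). Downward, SNORD115-31 differed by -0.11 (SE 0.08), SNORD116-6 by -0.12 (SE 0.13) and SNORD115-3 by -0.04 (SE 0.06), each short of an unadjusted p of 0.05.

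The shRNA differences were also compared between the lines, as U-HO1 minus L-1236. At an adjusted p under 0.05, 0 members and 0% of probe sets passed. SNORD116-18 at -0.40 (SE 0.15), SNORD116-15 at -0.35 (SE 0.15) and SNORD115-8 at -0.24 (SE 0.10) had an unadjusted p under 0.05, as had 2.46% of all probe sets, each with an adjusted p of 0.9997 by limma. UBE3A differed by -0.07 (95% interval -0.47 to 0.34) and MKRN3 by 0.12 (95% interval -0.19 to 0.43). Since GATA3 overlapped between the labels in both lines, these values compare labels and do not measure the response to a known loss of GATA-3.

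**Figure D4:**
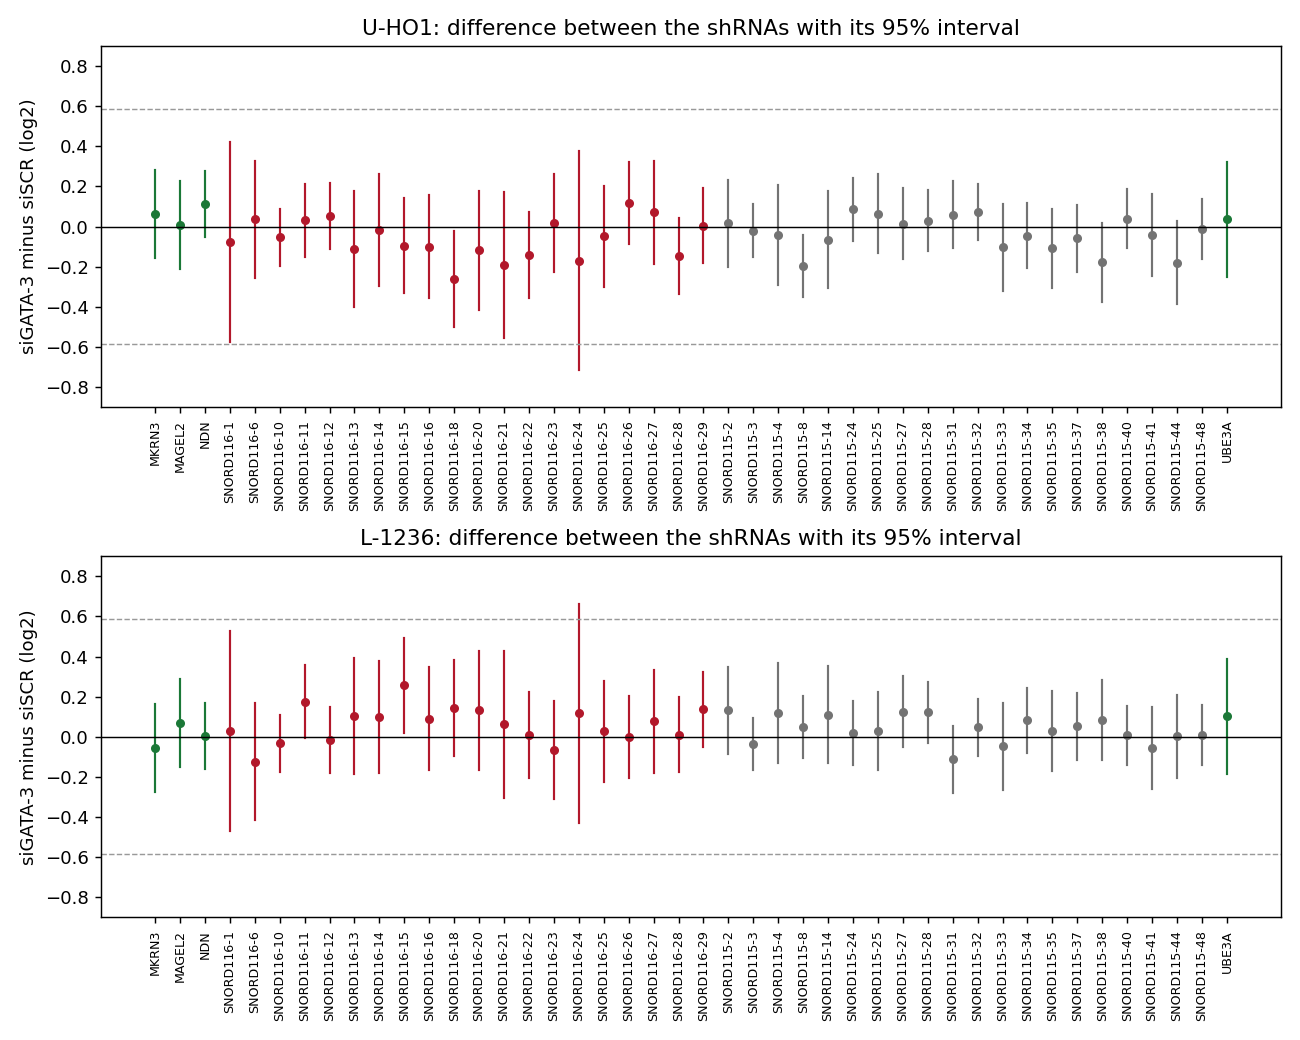
Difference in log2 signal, siGATA-3 minus siSCR, for every member in gene order in U-HO1 (upper panel) and in L-1236 (lower panel). Dots are differences, bars their 95% intervals, dashed lines a 1.5-fold change, and colour marks protein-coding genes (green), SNORD116 (red) and SNORD115 (grey). The dots lie between -0.26 and 0.12 in U-HO1 and between -0.12 and 0.26 in L-1236, and the widest intervals are those of SNORD116-24.

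Other transcripts of chromosome 15q11-q13 had a median difference of -0.04 on the siGATA-3 arrays. With the 2-fold limit, 0 of 11 measured passed as higher in U-HO1 and 1 as lower, against 2.4% and 2.66% of all probe sets. At an adjusted p under 0.05, 2 were higher, PWAR6 and GABRA5, and 2 lower, CYFIP1 and TUBGCP5, against 13% and 13.2%. GABRA5, a receptor subunit for the transmitter GABA, differed by 0.29 (SE 0.07), and TUBGCP5, a protein of the microtubule-nucleating complex, by -0.35 (SE 0.08). The one that passed with the 2-fold limit was CYFIP1, a regulator of actin and translation from the non-imprinted end of the region, at 8.05, 8.25 and 8.12 in U-HO1 and 9.06, 9.13 and 9.32 in L-1236, a difference of -1.03 (SE 0.09, limma adjusted p 0.000147). PWAR6, a noncoding RNA from the stretch before SNORD116, was, like GABRA5 and TUBGCP5, named after its value was seen. It was at 6.0, 5.84 and 6.0 in U-HO1 and 4.95, 4.98 and 5.05 in L-1236, a difference of 0.96 (SE 0.07, limma adjusted p 7.15e-05) that fell short of 2-fold.

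Proteins that build box C/D particles showed no member past 2-fold. Of 11 measured, 4 were higher and 2 lower in U-HO1 at an adjusted p under 0.05, where 13% and 13.2% of all probe sets were, and the median was 0.04. NOP58, a core protein of the particle, differed by 0.48 (SE 0.11) and ZNHIT6, an assembly factor, by -0.67 (SE 0.13). They were the highest and the lowest of the list and were named after their values were seen. Among the 7 proteins of the Sm ring, whose SmB subunit the SmN protein of SNRPN resembles, 1 was higher and 0 lower at the same threshold. Of all probe sets 13% and 13.2% were, so these counts are near the array-wide shares. The higher one was SNRPD1, at 0.47 (SE 0.13), while SNRPB, which encodes SmB, differed by -0.34 (SE 0.17, limma adjusted p 0.203).

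A list of 17 measured genes held genes tied to silencing at this locus or at imprinted genes in general. It also held TET1, TET2 and TET3, whose proteins oxidise methylated DNA and so act against silencing. Of the 17, 1 was higher and 8 lower in U-HO1 at an adjusted p under 0.05, where 13% and 13.2% of all probe sets were. The median difference was -0.23. TET3 was among the 8 lower, at -0.54 (SE 0.09, limma adjusted p 0.00323), and TET1 and TET2 were not. ARID4B, a chromatin protein linked in mice to the imprint of this locus, passed with the 2-fold limit, at 7.86, 7.64 and 7.75 in U-HO1 and 9.05, 8.89 and 8.70 in L-1236, a difference of -1.13 (SE 0.11, limma adjusted p 0.000184). The lines did not overlap. Chosen after their values were seen, EHMT2, the histone methyltransferase G9a, was at 8.37, 8.65 and 8.57 in U-HO1 and 9.19, 9.71 and 9.63 in L-1236, a difference of -0.98 (SE 0.14, limma adjusted p 0.00177). ZNF274, a zinc finger protein that binds SNORD116 copies, was at 7.80, 8.11 and 7.87 in U-HO1 and 8.41, 8.56 and 8.48 in L-1236, a difference of -0.56 (SE 0.10, limma adjusted p 0.0037). SMCHD1, which keeps imprinted clusters silent, lay the other way at 0.56 (SE 0.10). Of 7 measured partners of MAGEL2 and necdin, 1 was higher and 3 lower at the same threshold and against the same shares, among them TRIM27 at -0.83 (SE 0.11, limma adjusted p 0.00089).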

How the data were processed

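Expression was measured on 12 one-colour Affymetrix whole-transcript arrays, 3 for each line and shRNA. The deposited table holds normalized values that the authors made with R 2.8.1, per the submitters' processing notes, and that are taken here as log2 signal from their range; how background was corrected and probes were summarised is not given in the sources used here. It holds 32321 probe sets: 19158 list 1 symbol in the platform annotation, 1388 several and 11775 none, and 19128 matched a GRCh38.p14 gene table by Entrez identifier, which changed 0 member symbols.

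The members and gene lists were chosen with earlier results of these data known. Each list gene was read from its single-symbol probe set with the highest mean over the 12 arrays. The shares set against the lists are over all probe sets, including those without a symbol. With 1 probe set per gene, 1317 of 18404 passed between the lines in either direction, against 1638 of 32321 probe sets. Values were used as deposited, with no filter, in limma 3.58.1 (R 4.3.3, lmFit and eBayes), with Benjamini-Hochberg adjustment over all probe sets. The lines were compared on the 6 siGATA-3 arrays (4 residual degrees of freedom), at an adjusted p under 0.05 and at least 2-fold. The shRNA was compared within each line on all 12 arrays (8 residual degrees of freedom), at an adjusted p of at most 0.25 and at least 1.5-fold. Named snoRNA copies were, in each cluster, the 6 with the largest and 3 with the smallest line difference on siGATA-3 arrays. For the shRNA, the 3 lowest p values each way were named, and from each list, those that passed between the lines. Other copies and list genes given with values were named after their values were seen. The code was tested on simulated data.

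Deviations of same-numbered siGATA-3 arrays of the lines had r of 0.14, 0.21 and 0.15 for replicates 1, 2 and 3. For siSCR arrays of the lines r was 0.05, -0.17 and 0.26. Between siGATA-3 and siSCR arrays it was 0.17, -0.40 and -0.22 in L-1236 and -0.17, 0.06 and 0.32 in U-HO1. The signs were mixed, so the numbers are not shown to mark pairs. They were taken as pairs only in an alternative with the replicate as a block. No array equalled another. Alternatives were quantile normalization, centring of array medians, a filter on dim probe sets, 1 probe set per gene, a trended robust variance prior, other arrays in the fit, the replicate block and leaving out each array.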

Additional observations from a re-analysis of the deposited data

How the results depend on the processing

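The count of members higher in U-HO1 on siGATA-3 arrays was 8 as reported. It was 8 with the replicate block, 8 to 9 when 1 array was left out, and 20 without a fold limit, a setting chosen after seeing the data that only drops the 2-fold limit. The replicate block changed no call among the members named, and was not run for the other genes. Leaving out probe sets with a mean under 6 is no check of this count, since most SNORD116 copies kept by it were kept through their U-HO1 signal. SNORD116-14 differed by 5.01 to 5.16, UBE3A by 0.50 to 0.67 and MKRN3 by 0.38 to 0.53 under the alternatives, with adjusted p of at most 7.22e-06, 0.0277 and 0.0411. Signs turned only for members that did not pass. SNORD116-10 was at -0.0072 after quantile normalization, -0.0140 after centring and -0.0172 to 0.0588 with 1 array left out. SNORD115-25 was at -0.0210, -0.0335 and -0.0268 to 0.0401 under the same settings. After centring, SNORD115-35 was at -0.0294 and SNORD115-3 at -0.0299, and with 1 array left out they ran from -0.0843 to 0.0499 and from -0.0281 to 0.0222. MAGEL2 ran from -0.165 to 0.0041 with 1 array left out. For the shRNA in L-1236, SNORD115-3 was at 0.0259 after centring. The counts of members passing the shRNA comparisons stayed at 0 under these alternatives, but 22 probe sets of the whole array passed in L-1236 without L-1236 siSCR replicate 3, against 0 with it, none of them a member. Dim signal and the number of arrays limit what can be shown for SNORD115, NDN and MAGEL2.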

Other observations

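In the other large imprinted snoRNA cluster, on 14q32, no difference between the lines was detected on the siGATA-3 arrays. Of its 9 measured probe sets 0 had an adjusted p under 0.05 by limma, with differences of -0.11 to 0.08. They include DLK1, MEG3 and RTL1, which are not snoRNAs. The SNORD113 and SNORD114 probe sets averaged 5.05 to 5.54 across the lines, at or near 5.47, the 10th percentile of all values. At such signal a low level cannot be told from none. Of all probe sets 13% were higher and 13.2% lower at that threshold. Among 15 measured imprinted genes from other chromosomes, 1 passed as higher in U-HO1 and 0 as lower with the 2-fold limit. Of all probe sets 2.4% and 2.66% did, so these counts are near the array-wide shares. PEG10, a paternally expressed gene derived from a retrotransposon, was at 10.91, 10.38 and 10.74 in U-HO1 and 9.41, 8.93 and 9.81 in L-1236. The lines did not overlap, and the difference was 1.29 (SE 0.22), or 2.45-fold (limma adjusted p 0.00386). SGCE, its neighbour, also paternally expressed, differed by 0.50 (SE 0.14, limma adjusted p 0.0357), and MEST by 0.35 (SE 0.07). RB1 differed by -0.78 (SE 0.12), INPP5F by -0.75 (SE 0.07) and PLAGL1 by -0.39 (SE 0.07), all short of 2-fold. At an adjusted p under 0.05, 3 of the 15 were higher and 3 lower, against 13% and 13.2% of all probe sets. SGCE, MEST, RB1, INPP5F and PLAGL1 were chosen after their values were seen.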
